A study of Mus musculus with 3 samples.

Results

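The interleukin-6 (IL-6) family of cytokines was followed through single cells of the mouse femoral artery after a wire injury. Its 10 genes were taken by symbol from the 32285 genes of the 3 count matrices, and all 10 were found. They comprise 4 cytokines (Il6, Il11, Lif and Osm), 5 receptor chains (Osmr, Il6ra, Il6st, Lifr and Il11ra1) and Socs3, a feedback inhibitor that the pathway induces. All mice were wild-type males aged 8 weeks, and per the labels the groups were a sham operation (Sham) and femoral arteries taken 2 days (D2) or 7 days (D7) after the wire injury, with no harvest time given for Sham. Live single cells of 6 mice were sorted and pooled into 1 droplet library per group, and library, pool, sort and condition cannot be told apart. With a single library in each group there was no replicate, and no test of a difference was made.

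Cytokines of this family signal through shared receptors built around gp130, the product of Il6st. IL-6 and IL-11 bind their own alpha chains (Il6ra and Il11ra1) and then pair gp130 with itself, LIF joins gp130 to the LIF receptor (Lifr), and oncostatin M (Osm) joins gp130 to the oncostatin M receptor (Osmr). JAK kinases on these chains activate STAT3, which induces Socs3, and the SOCS3 protein in turn blocks gp130. In injured tissue the family is known for acute-phase responses, for signals from leukocytes to fibroblasts and vessel wall cells, and for matrix remodelling.

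After filtering, 7346 Sham, 11001 D2 and 10983 D7 cells were kept, with a median of 4080, 6626 and 6777 UMIs per cell (unique molecular identifiers, 1 per captured transcript). Between 43 and 51 barcodes of a library also occurred in another. Cells were clustered without the 10 genes and grouped into classes by marker genes, written with "-like" because the names rest on transcripts alone. Leukocyte-like classes made up 32.5% of the cells in Sham, 94.8% in D2 and 60.2% in D7, and stromal-like classes (fibroblast, smooth muscle, endothelial, lymphatic endothelial and Schwann) 65.8%, 2.33% and 36.7%. From D2 came as few as 113 cells of the fibroblast-like class, 89 of the endothelial-like and 17 of the smooth muscle-like. Levels are given in CPM, a gene's UMIs as a proportion of all UMIs, summed over the cells of a class in a library and put on the usual CPM scale, and brackets after ratios hold exact 95% intervals that cover counting error only. UMIs were counted at the transcripts' 3' ends, and levels are compared between classes and libraries but not between genes. The smooth muscle-like class was a single cluster, 18, led by Rgs5, a marker of pericytes, and then by Acta2, Tagln and Myh11. Its summed level of 10 fibroblast markers was 5066 CPM in Sham and 11306 CPM in D7. The part of pericytes and of fibroblast RNA in the levels of this class was not tested.

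The 4 cytokines and 5 receptor chains did not divide into leukocyte ligands and stromal receptors, although the pair of Osm and Osmr did. Leukocyte-like classes held 97.7% of the Osm UMIs in Sham, 99.4% in D2 and 93.6% in D7, while they held 44.3%, 93.1% and 46.9% of all UMIs. Stromal-like classes held 98% of the Osmr UMIs in Sham, 97.0% in D2 and 96.0% in D7, although in D2 they held only 4.68% of all UMIs. Il11ra1 was mostly stromal in Sham and D7, with 95.5% of its UMIs there in each. Il6 and Il6st were also mostly stromal in those 2 libraries, with 73.2% and 81.5% of Il6 and 81.8% and 87.5% of Il6st. Receptors were not confined to the stroma: leukocyte-like classes held 68.4%, 98.2% and 81.9% of the Il6ra UMIs and 50.2%, 95.2% and 61.7% of the Lifr UMIs in Sham, D2 and D7.

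**Figure D1:**
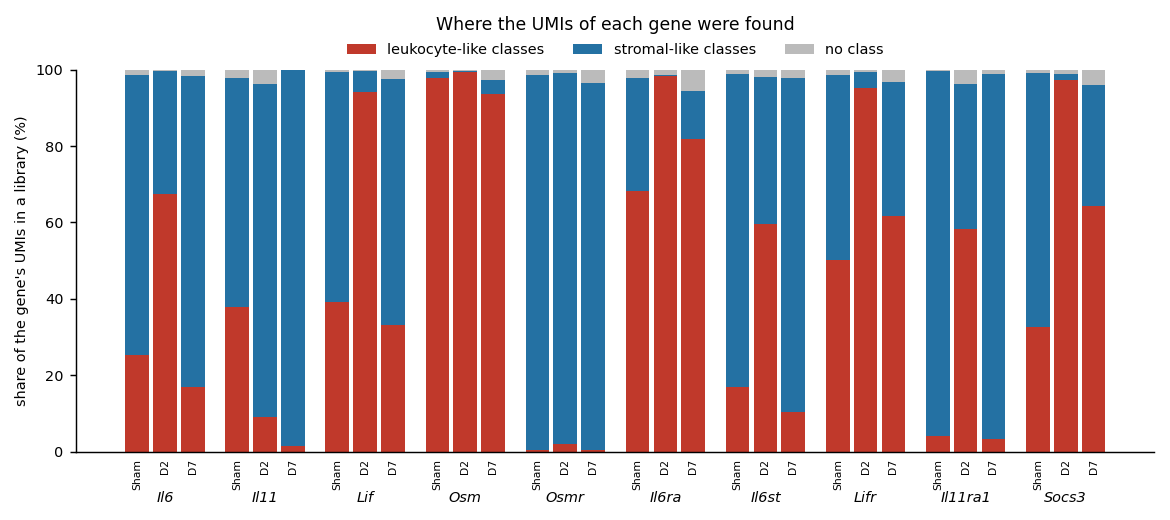
Share of each gene's UMIs (%) found in leukocyte-like classes, stromal-like classes and clusters without a class, by library. The Osm bars are almost wholly leukocyte and the Osmr bars almost wholly stromal in all 3 libraries, whereas the Il6ra and Lifr bars hold both.

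Osm, the leukocyte cytokine that signals through OSMR and gp130, had a level over the whole library of 18.4 CPM in Sham, 127 CPM in D2 and 72.1 CPM in D7. The ratio to Sham was 6.90 (6.39 to 7.46) in D2 and 3.92 (3.63 to 4.25) in D7, in libraries whose leukocyte-like share also differed. Neutrophil-like cells were at 380 CPM in Sham, 205 CPM in D2 and 286 CPM in D7, the order in which 3 values are given together, so this class was lower after injury, at 0.540 (0.474 to 0.618) of Sham in D2 and 0.753 (0.658 to 0.865) in D7. Sham held only 148 such cells, against 4509 in D2 and 1576 in D7. Monocyte/macrophage-like cells were at 41.5, 136 and 174 CPM, so they were 3.28-fold (2.90 to 3.71) above Sham in D2 and 4.18-fold (3.70 to 4.75) in D7. Dendritic-like cells followed the macrophage direction, at 10.4, 57.9 and 39.4 CPM. A small mast/basophil-like class of 74, 14 and 34 cells had the highest class level in D2 and D7, at 871 and 956 CPM against 260 CPM in Sham. In that class Mcpt4, a protease of connective tissue mast cells, was at 21977 CPM in Sham, 3775 CPM in D2 and 8443 CPM in D7, and the part of this in the Osm and Il6 values of the class was not tested.

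Within single clusters, Osm was higher after injury in monocyte cluster 6, whereas resident-like macrophages, compared in D7 only, were near their Sham level. Cluster 6, led by the monocyte genes Chil3, Plac8 and Ly6c2, was at 66.5 CPM in Sham, 225 CPM in D2 and 301 CPM in D7, giving ratios of 3.38 (2.70 to 4.28) and 4.53 (3.61 to 5.74). Cluster 14, led by Cd209f, Cd163, Lyve1 and Folr2, genes of tissue-resident macrophages, was at 38.3 CPM in D7 against 36.3 CPM in Sham, a ratio of 1.05 (0.716 to 1.51). This cluster made up 75.8% of the monocyte/macrophage-like cells in Sham but 0.452% in D2 and 5.03% in D7. Other macrophage clusters also held Osm after injury, but had too few Sham cells, 43 and 24, for a ratio. Cluster 0 (Arg1 and Trem2), 61.4% of the class in D2, was at 97.6 CPM in D2 and 105 CPM in D7. Cluster 9 (Mmp12 and Areg) was at 222 and 189 CPM. Among neutrophil-like cells, cluster 4, led by Retnlg and Slpi and holding 89.9% of that class in Sham, was at 369, 281 and 385 CPM. Its ratio to Sham was 0.760 (0.659 to 0.880) in D2 and 1.04 (0.899 to 1.21) in D7. The neutrophil clusters found mostly after injury were lower, with cluster 3 (Il1r2, Cxcr2) at 154 and 189 CPM and cluster 5 (Il23a, Tnf) at 192 and 193 CPM in D2 and D7.

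With every cell thinned to 1000 UMIs, an Osm UMI was detected in 21.8%, 14.8% and 19.6% of neutrophil-like cells from the Sham, D2 and D7 libraries. In monocyte/macrophage-like cells the shares were 4%, 10.4% and 14.3%. B-like cells, which served as a guide to RNA carried over from other cells, had Osm UMIs in 0.714% of the cells in Sham and 0.911% in D7, and their level was 5.81, 4.38 and 17.5 CPM. The stromal-like classes together stood at 0.535, 2.81 and 5.64 CPM of Osm, below the B-like level in each library, and are not read as expressing it. Not every part of them lay below it: fibroblast cluster 10 was at 35.2 CPM in D7, from 17 UMIs in 81 cells. Of 11 neutrophil markers, 7 were detected in endothelial-like cells of Sham and 10 in those of each injured library, with summed levels of 49.6 CPM in Sham, 1529 CPM in D2 and 428 CPM in D7, and their part in the stromal Osm levels was not tested.

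**Figure D2:**
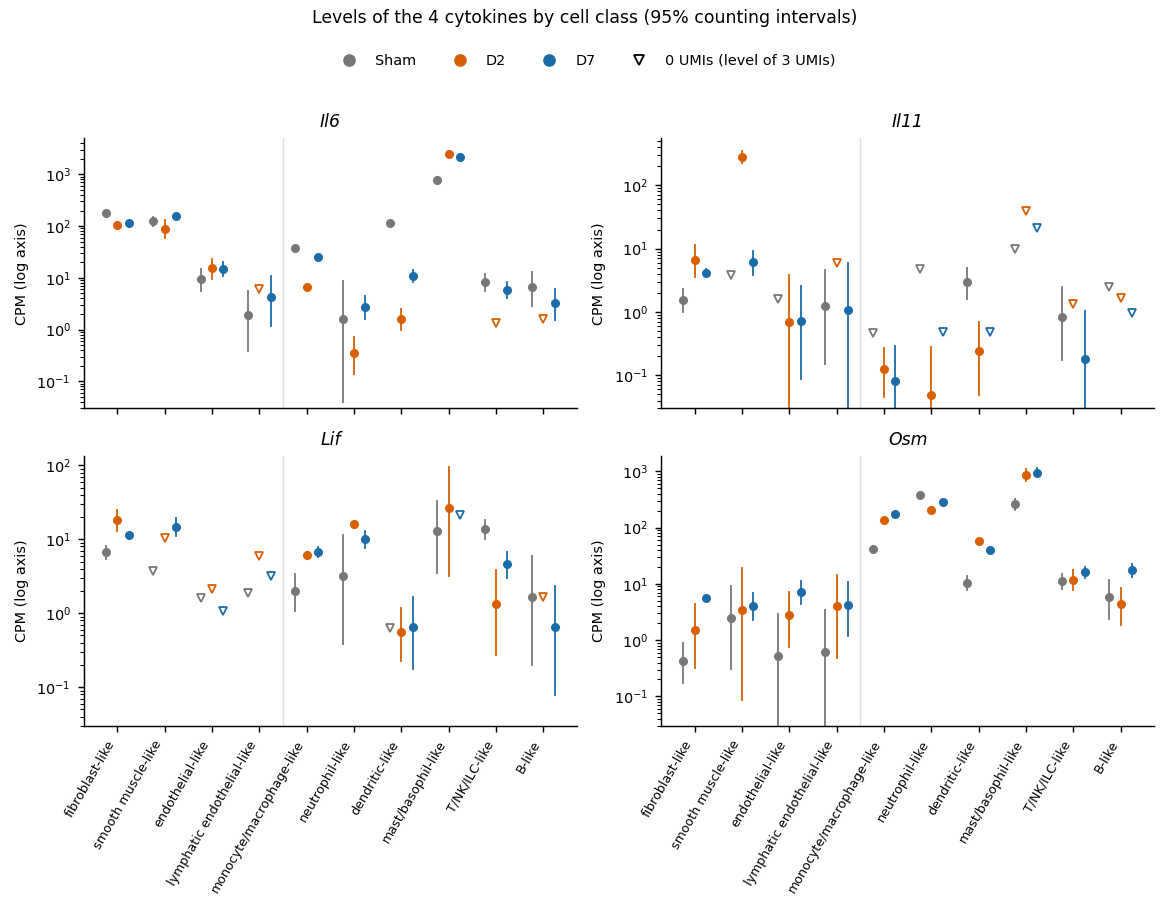
Levels of Il6, Il11, Lif and Osm (CPM, log axis) in 10 cell classes, with Sham, D2 and D7 side by side. Points are sums over cells with exact 95% Poisson intervals, open triangles mark the level 3 UMIs would give where none was counted, and the vertical line divides stromal from leukocyte classes. Osm is high only to the right of the line, while Il6 is high on both sides.

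Il6, the pro-inflammatory cytokine that gives the family its name, was mainly a fibroblast-like transcript in Sham and D7. That class held 70.3% of its UMIs in Sham and 71.5% in D7, but 26.1% in D2, where monocyte/macrophage-like cells held 40.3% and the 14 mast/basophil-like cells 23.8%. In the fibroblast-like class Il6 was at 181 CPM in Sham, 104 CPM in D2 and 114 CPM in D7, which was 0.574 (0.496 to 0.662) of Sham in D2 and 0.629 (0.6 to 0.659) in D7. Il6 UMIs were unevenly spread over cells: in D2, 85 of the 205 fibroblast-like UMIs came from 3 cells, so the interval is too narrow. Without the 3 cells richest in Il6 in each library the D2 ratio was 0.381, and with each cell weighted equally it was 0.299. Smooth muscle-like cells were at 124, 89.2 and 156 CPM. Dendritic-like cells were at 113 CPM in Sham, 1.61 CPM in D2 and 11.0 CPM in D7, or 0.0142 (0.00859 to 0.0221) of Sham in D2. Without the 3 richest cells in each library that ratio was 0.00742. Monocyte/macrophage-like cells were at 37.8, 6.58 and 25.1 CPM, and the D2 ratio to Sham of 0.174 was 0.0994 with doublets kept. Within that class the clusters diverged in D7. Monocyte cluster 6 was at 65.7, 20.75 and 76.8 CPM, so it was not below Sham in D7. The resident-like cluster 14 was at 5.32 CPM in D7, from 5 UMIs, against 30.3 CPM in Sham. Mast/basophil-like cells were highest in each library, at 764, 2468 and 2174 CPM, with 129 of the 187 UMIs of D2 in 3 cells.

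The fibroblast-like class was made of different clusters in each library, and Il6 differed among them. Cluster 1, led by Mfap4, Cthrc1 and Postn, matrix genes of activated fibroblasts, held 86.6% of the class in D7 and 70.8% in D2 but 0.442% in Sham. It was at 109 CPM in D2 and 112 CPM in D7. Cluster 10 (Inmt, Penk and C7) was at 269 CPM in D7 against 214 CPM in Sham. The ratio was 1.26 (1.04 to 1.51), whereas the class was lower in D7. The D7 value rests on 130 UMIs in 81 cells, and with Il6 unevenly spread over cells this interval may be too narrow. With cells thinned to equal depth, an Il6 UMI was detected in 13.75% of the cluster's cells in D7 and 12.9% in Sham. The part of a few rich cells in this ratio was not tested, so no direction is read from it. Cluster 13 (Pi16 and Sema3c, genes of adventitial fibroblasts) was at 103 CPM in D7 against 121 CPM in Sham, a ratio of 0.856 (0.730 to 0.999). Cluster 2, a shallow cluster with a median of 853 UMIs that held 51.7% of the Sham class, was at 155 CPM in D7 against 298 CPM in Sham. Genes induced early by stress and by tissue dissociation moved as well: Atf3 was at 497 CPM in Sham, 119 CPM in D2 and 239 CPM in D7 fibroblast-like cells, and Egr1 at 1608, 575 and 1125 CPM. Fos was at 2254, 1114 and 2326 CPM and Junb at 1183, 561 and 1224 CPM. The part of these genes in the Il6 and Socs3 levels was not tested.

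The Il6 promoter is shown because Il6 and Socs3 were both lower in the fibroblast-like class after injury and both are known targets of inducible factors. The 250 bases before the RefSeq start (chr5:30012864-30013113, plus strand, GRCm38.p6) are printed 5' to 3', with motif matches in capitals.
Il6: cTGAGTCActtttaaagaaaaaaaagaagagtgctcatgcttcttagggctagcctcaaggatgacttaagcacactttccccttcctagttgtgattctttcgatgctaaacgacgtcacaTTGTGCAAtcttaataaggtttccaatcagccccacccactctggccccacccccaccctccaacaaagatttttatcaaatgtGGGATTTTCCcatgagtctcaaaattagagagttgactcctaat
Counted from the start, the capitals begin 249 bases upstream with a match to TGANTCA (AP-1), 128 bases upstream with a match on the other strand to TTGCNNAA (C/EBP) and 44 bases upstream with a match to GGGA, any base and then TTTCC (NF-kB). Searched on both strands, these letters occur in 7.81%, 10.8% and 0.411% of the 32851 RefSeq promoter windows, which run from 250 bases before to 50 after a start. None of these matches overlap, and a match describes the letters and not a bound site.

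Lif, which signals through LIFR and gp130, was a low transcript, with 179, 663 and 773 UMIs in Sham, D2 and D7. In D2, 48.3% of its UMIs lay in neutrophil-like and 44.2% in monocyte/macrophage-like cells, against 1.12% and 7.26% in Sham. Of all UMIs these classes held 22.1% and 52.8% in D2, against 1.66% and 17% in Sham. Fibroblast-like cells held 60.3% of the Lif UMIs in Sham, 5.43% in D2 and 56.9% in D7. Smooth muscle-like cells had no Lif UMI in Sham or D2. They were at 14.9 CPM in D7, with 26 of the 54 UMIs in 3 cells. Neutrophil-like cells were at 3.16 CPM in Sham (2 UMIs), 15.9 CPM in D2 and 9.96 CPM in D7. The highest cluster level was in Sham, in cluster 21, which is led by Trdc, Gata3, Il23r and Il1rl1, genes of gamma-delta T cells and innate lymphoid cells. It was at 29.8 CPM in D7 against 48.6 CPM in Sham. Lif in fibroblast-like cells was at 6.69, 18.3 and 11.3 CPM, which was 2.73-fold (1.82 to 4.01) above Sham in D2 and 1.69-fold (1.37 to 2.11) in D7. The D2 value rests on few cells: 20 of its 36 UMIs came from 3 of the 113 cells, 11 of them from 1 cell, and all 36 lay in the activated cluster 1. The D2 ratio was 1.39 without the 3 richest cells in each library and 1.47 with each cell weighted equally. With cells thinned to 2000 UMIs, 0 of 90 D2 cells had a Lif UMI, which allows a share of up to 3.33%, against 1.29% of 1855 Sham cells. Cluster 13 went against the class, at 2.09 CPM in D7 (4 UMIs) against 6.89 CPM in Sham. Endothelial-like cells had no Lif UMI in any library.

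Il11, a cytokine known for fibroblast activation, was scarce at 45, 109 and 188 UMIs. In D2, 81 of the 109 UMIs came from 2 of the 17 smooth muscle-like cells, 79 of them from a single cell. In D7, fibroblast-like cells held 85.1% of the Il11 UMIs and were at 4.11 CPM, against 1.55 CPM in Sham, a ratio of 2.66 (1.74 to 4.23). Of these 160 UMIs, 39 came from 3 cells and 17 of them from 1 cell, so the interval is too narrow. The D2 level of 6.59 CPM had 10 of its 13 UMIs in 3 cells. Smooth muscle-like cells were at 6.06 CPM in D7, and dendritic-like cells held 31.1% of the Sham UMIs. All fibroblast-like levels of Il11 lay below 10 CPM, the lowest level at which 2 libraries were compared across genes.

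Osmr, the oncostatin M receptor chain, was spread over the stromal-like classes and nearly absent from most leukocyte-like classes. Cluster 23, which was given no class and is led by adipocyte genes, also held it, at 203 CPM in D7 against 142 CPM in Sham. Fibroblast-like cells were at 87.4 CPM in Sham, 91.3 CPM in D2 and 96.4 CPM in D7, and the ratios to Sham were 1.04 (0.889 to 1.22) in D2 and 1.10 (1.04 to 1.17) in D7. Over the whole library, by contrast, the D2 level was 0.0816 (0.0734 to 0.0905) of Sham, in a library where stromal-like cells were few, and 0.0496 with each cell weighted equally. Endothelial-like cells were at 211, 95.2 and 148 CPM, so they were lower after injury, at 0.452 (0.369 to 0.551) of Sham in D2 and 0.703 (0.611 to 0.809) in D7. With each cell weighted equally the D7 ratio was 1.02, so its direction depends on that choice. Smooth muscle-like cells were at 156 CPM in D7 against 77.9 CPM in Sham, a ratio of 2.00 (1.54 to 2.64). Lymphatic endothelial-like cells were at 190, 142 and 142 CPM. In the monocyte/macrophage-like class Osmr was at 1.23, 0.0830 and 0.449 CPM, and B-like cells had no UMI of it, where 3 UMIs would have given 2.49, 1.64 and 0.973 CPM. The 113 fibroblast-like cells of D2 limited that estimate, and leaving out the 3 cells with the most Osmr UMIs in each library brought the D2 ratio to 0.872. The fibroblast-like ratios lay on the other side of 1 under 7 alternatives for D2 and under 2 for D7, so no direction is read from either.

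Il6st, which encodes gp130, was highest in endothelial-like cells after injury, at 427 CPM in Sham, 566 CPM in D2 and 652 CPM in D7. The ratios to Sham were 1.33 (1.2 to 1.47) and 1.53 (1.40 to 1.66). Fibroblast-like cells were at 220, 270 and 280 CPM, and smooth muscle-like cells at 245 CPM in D7 against 117 CPM in Sham, a ratio of 2.10 (1.69 to 2.62) that was 1.03 with classes set cell by cell. Lymphatic endothelial-like cells had the opposite order, at 473, 349 and 320 CPM. Monocyte/macrophage-like cells were lower after injury, at 77.3, 31.4 and 28.7 CPM, and the resident-like cluster 14 was lower too, at 52.1 CPM in D7 against 86.5 CPM in Sham. In monocyte cluster 6 Il6st was at 36.6, 36.3 and 25.5 CPM, with ratios to Sham of 0.993 (0.722 to 1.39) in D2 and 0.697 (0.490 to 1.01) in D7, so neither differed beyond counting error. The part in the class difference of cluster 14, a far larger share of the class in Sham than in D2 or D7, was not tested. B-like cells were at 33.2, 38.3 and 55.2 CPM of Il6st. In D2 and D7 the monocyte/macrophage-like class and its cluster 6 lay below them. Neutrophil-like cells held almost none, at 4.75, 1.74 and 5.14 CPM. With cells thinned to 2000 UMIs, UMIs of both Osmr and Il6st were found in 14.7% of the 340 endothelial-like cells in Sham, 16.0% of the 81 in D2 and 19.2% of the 333 in D7, and in 5.44%, 7.78% and 7.43% of fibroblast-like cells. In endothelial-like cells the shares lay close to the products of the single shares (15.2%, 15.4% and 18.0%). In fibroblast-like cells the single shares were 14.3%, 17.8% and 16.0% for Osmr and 34.3%, 36.7% and 40.4% for Il6st. The joint shares there lay above the products of these, which was not tested.

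**Figure D3:**
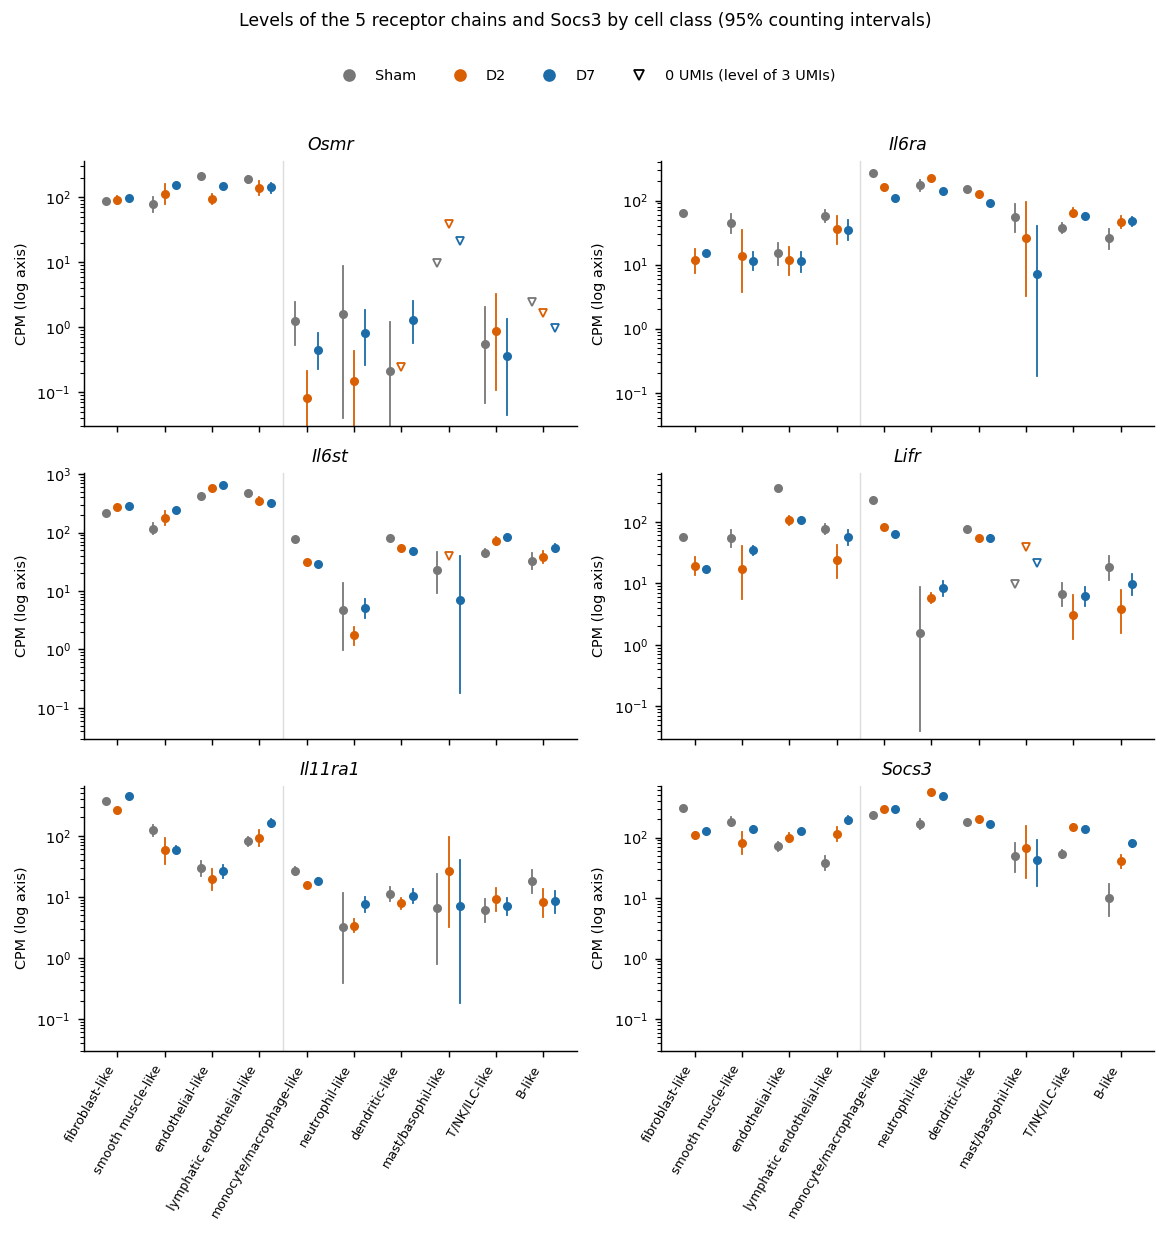
Levels of the 5 receptor chains and Socs3 (CPM, log axis) in 10 cell classes, with Sham, D2 and D7 side by side. Points are sums over cells with exact 95% Poisson intervals, and open triangles mark the level 3 UMIs would give where none was counted. Osmr drops to about 1 CPM or less in most leukocyte classes, and Lifr in Sham stands above both injured libraries in endothelial-like and monocyte/macrophage-like cells.

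Il6ra, the IL-6 binding chain, was highest in myeloid classes. Monocyte/macrophage-like cells were at 274, 163 and 110 CPM, so they were lower after injury, at 0.597 (0.567 to 0.629) of Sham in D2 and 0.403 (0.379 to 0.428) in D7. Neutrophil-like cells were at 172, 222 and 143 CPM, and dendritic-like cells at 150 CPM in Sham and 126 CPM in D2, with D7 at 0.599 (0.535 to 0.670) of Sham. Both named macrophage clusters were lower in D7: monocyte cluster 6 was at 129 CPM against 238 CPM in Sham, and cluster 14 at 234 CPM against 289 CPM in Sham. Fibroblast-like cells were at 64.0, 11.7 and 15.2 CPM, at 0.182 (0.115 to 0.275) of Sham in D2 and 0.238 (0.214 to 0.263) in D7. Without the 3 richest cells the D2 ratio was 0.112, and with each cell weighted equally the D7 ratio was 0.424. In this case the clusters shared the direction of the class. Cluster 13, the highest fibroblast cluster, was at 51.1 CPM in D7 against 101 CPM in Sham, a ratio of 0.508 (0.408 to 0.628). Cluster 10 was at 20.7 CPM in D7 against 38.1 CPM in Sham, but the interval of its ratio, 0.257 to 1.02, reached 1. Levels of Il6ra in B-like cells were 25.7, 46.5 and 47.7 CPM, so the fibroblast-like levels of D2 and D7, and the endothelial-like levels of 14.9, 11.9 and 11.2 CPM, lay below them.

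Lifr, the LIF receptor chain, was highest in Sham in endothelial-like cells and resident-like macrophages. Endothelial-like cells were at 359 CPM in Sham, 105 CPM in D2 and 107 CPM in D7, at 0.292 (0.243 to 0.349) and 0.297 (0.259 to 0.341) of Sham. The stress genes Fos and Egr1 were lower there too, at 558, 171 and 266 CPM and at 265, 194 and 122 CPM. Atf3 and Junb differed less, at 87.5, 60.2 and 68.3 CPM and at 466, 435 and 431 CPM. The part of these stress genes in the endothelial-like Lifr and Osmr differences was not tested. Monocyte/macrophage-like cells were at 222, 83.6 and 64.0 CPM, so the class was lower after injury, at 0.377 (0.355 to 0.400) of Sham in D2 and 0.288 (0.268 to 0.310) in D7. The resident-like cluster 14 went the other way, at 379 CPM in D7 against 274 CPM in Sham, a ratio of 1.38 (1.23 to 1.55). Monocyte cluster 6 was far lower in each library, at 34.9, 57.3 and 27.1 CPM, and its D2 ratio to Sham of 1.64 (1.2 to 2.31) was also opposite to the class. In D7 its ratio was 0.777 (0.545 to 1.13). In the monocyte/macrophage-like class Atf3 was at 1020, 505 and 496 CPM and Egr1 at 1034, 776 and 766 CPM. Fos was at 2418, 2634 and 2036 CPM and Junb at 2234, 1756 and 1916 CPM. The part of these stress genes in the Il6 and Lifr differences of that class was not tested. Lifr in fibroblast-like cells was at 57.2, 19.3 and 17.3 CPM. With each cell weighted equally its ratios to Sham were 0.524 in D2 and 0.471 in D7, against 0.337 and 0.302 from the sums. Clusters 10 and 13 were both lower in D7, at 0.574 (0.379 to 0.838) and 0.551 (0.371 to 0.796) of Sham. Cluster 26, a plasmacytoid dendritic-like cluster led by Siglech and Ccr9, was at 268 CPM in its 50 D7 cells, above the endothelial-like level of that library.

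Il11ra1, the IL-11 binding chain, was a fibroblast-like transcript, at 379 CPM in Sham, 265 CPM in D2 and 444 CPM in D7. The ratio to Sham was 0.698 (0.637 to 0.763) in D2 and 1.17 (1.14 to 1.21) in D7. With each cell weighted equally the D2 ratio was 1.09, so no direction is read from it. Cluster 10 was highest, at 661 CPM in D7 against 603 CPM in Sham, and cluster 13 was at 280 CPM in D7 against 157 CPM in Sham, a ratio of 1.78 (1.61 to 1.98). Within cluster 1 the ratio of D7 to D2 was 1.89 (1.72 to 2.08), with 449 CPM in D7 and 238 CPM in D2. Smooth muscle-like cells were lower in D7, at 59.2 CPM against 124 CPM in Sham, and lymphatic endothelial-like cells higher, at 162 CPM against 81.0 CPM in Sham. The mouse genome holds near-identical copies of this gene, so its counts are uncertain. The copy Il11ra2 had no UMI and the copy Gm20878 had 43, 7 and 40 UMIs in Sham, D2 and D7, against 6716, 1626 and 18620 for Il11ra1.

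Socs3, the STAT3-induced inhibitor of gp130, differed in opposite directions in neutrophils and fibroblasts. Neutrophil-like cells were at 169 CPM in Sham, 560 CPM in D2 and 478 CPM in D7, which was 3.31-fold (2.73 to 4.04) and 2.83-fold (2.33 to 3.46) above Sham. The stress gene Egr1 was at 1223, 2562 and 1061 CPM and Fos at 3035, 2008 and 1089 CPM in these cells. Junb was at 3777, 3927 and 3102 CPM and Atf3 at 549, 366 and 225 CPM. The part of these stress genes in the neutrophil-like Socs3 difference was not tested. Fibroblast-like cells were at 311, 110 and 128 CPM, or 0.354 (0.308 to 0.406) and 0.413 (0.397 to 0.430) of Sham. Lymphatic endothelial-like cells were at 195 CPM in D7 against 38.3 CPM in Sham, a ratio of 5.08 (3.78 to 6.91), and endothelial-like cells at 126 CPM in D7 against 72.5 CPM in Sham. Without the 3 richest cells in each library the lymphatic ratio was 9.06. B-like cells were at 9.95, 40.5 and 80.1 CPM, and T/NK/ILC-like cells at 53.4, 148 and 138 CPM. All 12 monocyte/macrophage markers were detected in B-like cells, with summed levels of 140, 202 and 576 CPM, and their part in the B-like Socs3 levels was not tested. Monocyte/macrophage-like cells differed little as a class, at 232, 294 and 300 CPM.

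Within single fibroblast clusters present in both libraries, Socs3 differed less than in the class. Cluster 10 was at 333 CPM in D7 against 384 CPM in Sham, a ratio of 0.867 (0.735 to 1.02), and cluster 13 at 205 CPM against 263 CPM, a ratio of 0.781 (0.699 to 0.871). The activated cluster 1 was at 113 CPM in D2 and 121 CPM in D7, and shallow cluster 2 at 132 CPM in D7 against 262 CPM in Sham. In neutrophils cluster 4 showed the direction of the class and was at 161, 468 and 379 CPM, at ratios to Sham of 2.91 (2.37 to 3.61) and 2.36 (1.91 to 2.94). Monocyte cluster 6 was at 128, 327 and 390 CPM, so its ratios to Sham of 2.55 (2.17 to 3.02) and 3.05 (2.58 to 3.61) exceeded those of its class. The resident-like cluster 14 was at 261 CPM in D7 against 252 CPM in Sham. Osm and Socs3 were both higher after injury in monocyte cluster 6, and in cluster 14 neither differed between D7 and Sham beyond counting error. In neutrophil cluster 4 they went opposite ways in D2, with Osm at 281 CPM against 369 CPM in Sham while Socs3 was higher. A link between Osm and Socs3 was not tested.

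**Figure D4:**
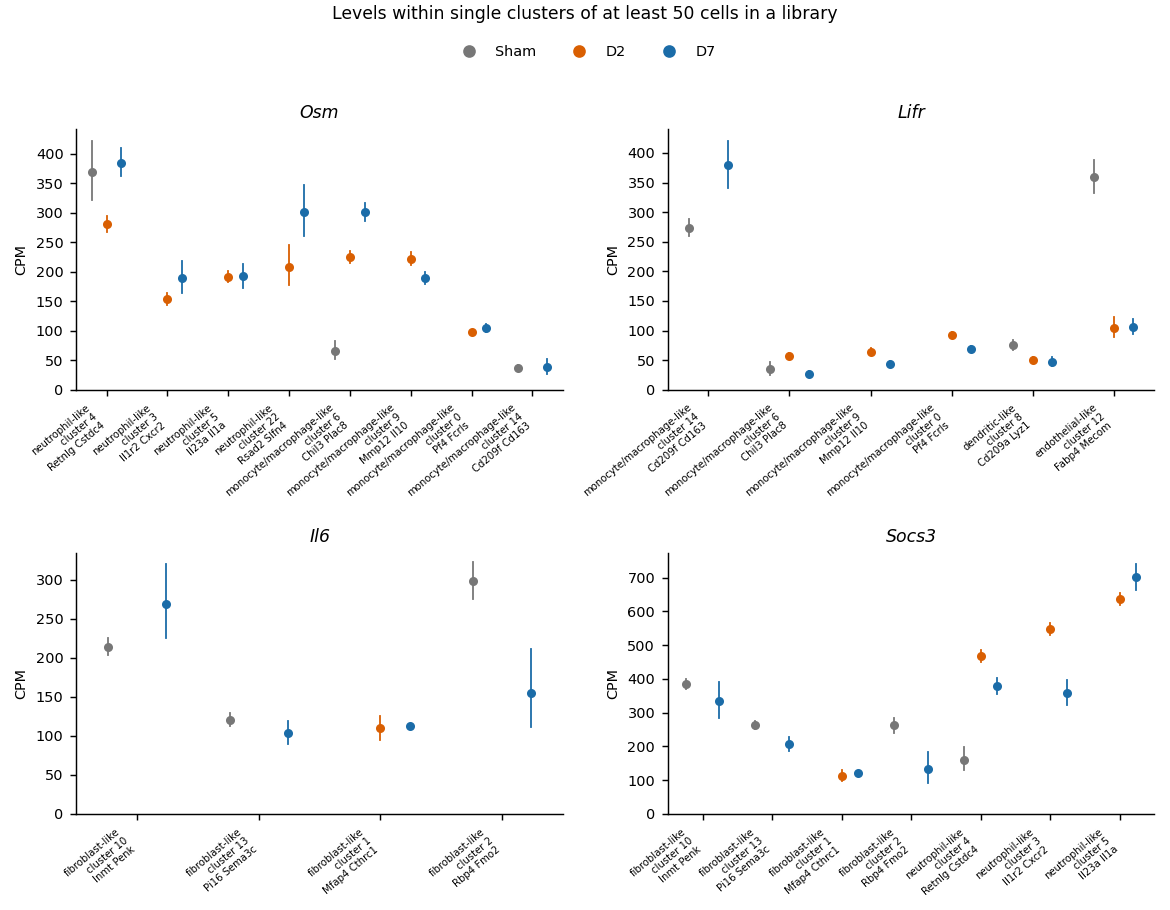
Levels (CPM) of Osm, Lifr, Il6 and Socs3 within single clusters, for libraries with at least 50 cells of the cluster; bars are exact 95% Poisson intervals. Monocyte cluster 6 is higher for Osm in D2 and D7 than in Sham, while resident-like cluster 14, compared in D7 only, is not. Fibroblast cluster 10 is close to its Sham level for Socs3 while cluster 1, nearly absent from Sham, is low.

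The Socs3 promoter is shown because STAT3 is known to induce the gene, and the match found is not read as the site that acts. The window before the RefSeq start is printed 5' to 3' from its far end to the edge of an annotated GENCODE exon (chr11:117969452-117969616, minus strand, GRCm38.p6), with the match in capitals.
Socs3: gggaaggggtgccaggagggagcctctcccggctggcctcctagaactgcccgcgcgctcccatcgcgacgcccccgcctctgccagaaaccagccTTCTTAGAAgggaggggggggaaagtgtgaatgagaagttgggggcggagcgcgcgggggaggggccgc
The capitals match TTCNNNGAA, the gamma-activated site that STAT proteins bind, beginning 154 bases before that start. These letters, which read the same on both strands, occur in 8.30% of the 32851 windows. Of the 12 windows of the 9 genes that have one, only this window held them. The printed stretch lies inside the gene's GENCODE span (chr11:117966079-117970047), and the match describes letters and not a bound site. Osm was not among the genes with a window.

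Against all genes, the 10 genes moved in both directions. A gene was set apart when its ratio of (CPM + 1) was at least 2-fold, and the library with the higher level held 10 CPM and 20 UMIs of it or more. In fibroblast-like cells 8 of the 10 passed these minimums for D2 over Sham; Lif was higher and Il6ra, Lifr and Socs3 were lower, where 12.3% of 9329 genes were higher and 13.3% lower (25.7% in either direction). Lif passed the minimums here only through D2, where it was high, with Sham at 6.69 CPM. The Lif call ends without the 3 cells richest in Lif (1.39), and the Lifr call with each cell weighted equally (0.524). For D7 over Sham the same 3 were lower and none was higher, against 6.68% higher and 8.12% lower of 9115 genes (14.8% in either direction). Between D7 and D2 none of 8 that passed was set apart, against 12.2% of 9035 genes. In endothelial-like cells Osmr and Lifr were lower for D2 (10.7% of genes higher, 10.4% lower) and Lifr for D7 (7.75% higher, 5.96% lower), of 7 genes that passed. In monocyte/macrophage-like cells, of 7, Osm alone was higher in D2 (5.02% of genes higher) and in D7 (6.26%). In that class 3 were lower in each, Il6, Il6st and Lifr in D2 (7.91% lower) and Il6ra, Il6st and Lifr in D7 (8.90%). In neutrophil-like cells Lif and Socs3 were higher for D2, of 4 that passed, where 30.8% of 6384 genes were higher and 5.37% lower. Lif again passed only through D2, with 2 UMIs (3.16 CPM) in Sham. For D7 Socs3 alone was higher, of 3 that passed (31.3% of genes higher, 5.32% lower). The neutrophil comparison rests on the 148 Sham cells, and its median log2 ratio over all genes was 0.53 for D2.

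**Figure D5:**
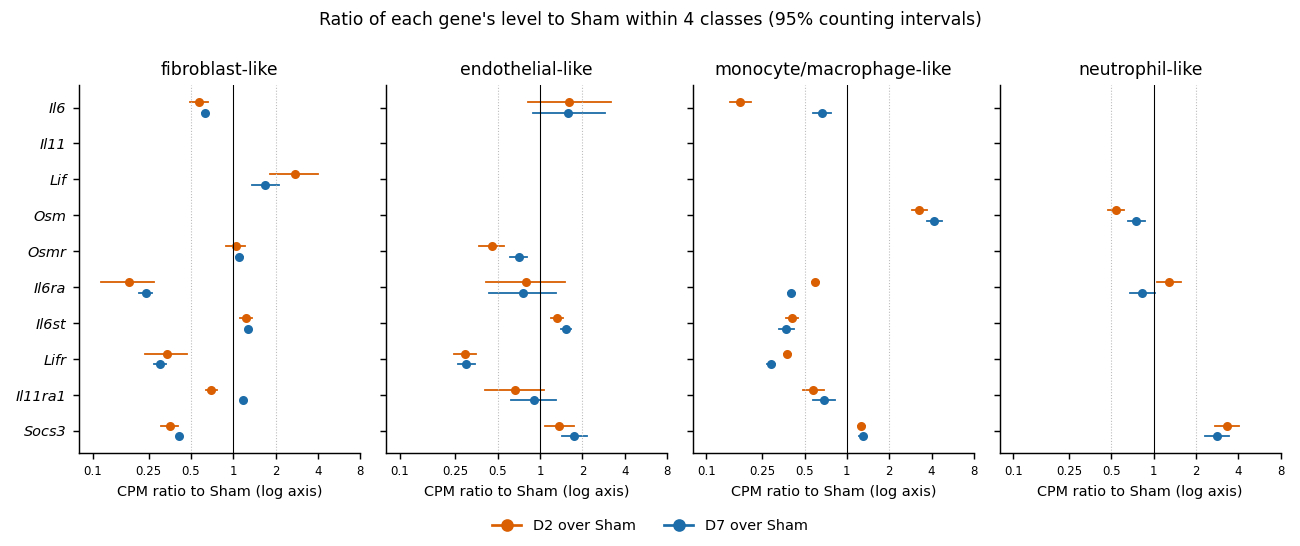
Ratio of each gene's level (CPM, log axis) in D2 and in D7 to Sham within 4 classes, with exact 95% counting intervals; a gene is drawn where 10 CPM and 20 UMIs were reached in one library and more than 3 UMIs in the other. Socs3 lies left of 1 in fibroblast-like cells at 0.354 and 0.413 and right of 1 in neutrophil-like cells at 3.31 and 2.83.

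Of 20 genes often described as responding to IL-6 family signals (acute-phase, survival and transcription factor genes), 19 passed the minimums in fibroblast-like cells for D2 over Sham, and 9 were higher and 4 lower, where 12.3% of all genes were higher and 13.3% lower. Their median log2 ratio was 0.76, beside -0.01 over all 9329 genes. The list was chosen with earlier results of these data known, so its counts and medians carry no test in this or any other class. Timp1, an inhibitor of matrix metalloproteinases known to respond to oncostatin M, was at 1836 CPM in D2, 600 CPM in D7 and 83.6 CPM in Sham. Saa3, an acute-phase gene, was at 36.0 CPM in D2 and 67.4 CPM in D7, against 1 UMI in Sham. Birc5, a gene of dividing cells, was at 172 CPM in D2 and 7.76 CPM in D7 against 2.72 CPM in Sham. For D2 over Sham, Saa3 and Birc5 passed the minimums only through D2, where they were high. The 4 that were lower in D2 were Cebpd, Vegfa, Fos and Junb. Cebpd, a transcription factor gene that follows STAT3, was at 256 CPM in D2 and 339 CPM in D7 against 704 CPM in Sham. For D7 over Sham 8 of 18 were higher and 2, Cebpd and Vegfa, lower, where 6.68% of all genes were higher and 8.12% lower, and the median log2 ratio was 0.92 beside -0.07.

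In endothelial-like cells 9 of 16 such genes were higher and 1 lower for D2, and 12 of 17 higher and 1 lower for D7, with a median log2 ratio of 1.32 and 1.21 beside -0.01 and 0.06 over all genes. Of all genes in that class 10.7% were higher and 10.4% lower for D2, and 7.75% and 5.96% for D7. Timp1 was at 71.4 CPM in D2 and 48.0 CPM in D7 against 4.27 CPM in Sham, and Pim1, a survival kinase gene, at 101 CPM in D2 and 97.2 CPM in D7 against 32.0 CPM in Sham. In monocyte/macrophage-like cells 6 of 16 were higher and 0 lower for D2, and 4 of 15 higher and 0 lower for D7. Of all genes there 5.02% were higher and 7.91% lower for D2, and 6.26% and 8.90% for D7, but the median log2 ratio of the list was 0.03 beside 0.04 for D2 and 0.11 beside -0.12 for D7. Vegfa was at 92.3 CPM in D2 and 92.1 CPM in D7 against 5.40 CPM in Sham, the opposite of its direction in fibroblast-like cells. In neutrophil-like cells 3 of 14 were higher and 2 lower for D2, where 30.8% of all genes were higher and 5.37% lower, with Lcn2 at 151 CPM in D2 against 1345 CPM in Sham. Many of these genes also respond to other signals, so their counts are not a readout of this family alone.

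Of 23 other genes of the pathway, 15 passed the minimums in fibroblast-like cells for D2 over Sham, of which 1 was higher and 2, Socs1 and Il31ra, lower. For D7 over Sham 15 passed, and 1 was higher and 1, Il31ra, lower. Of all genes in that class 12.3% were higher and 13.3% lower for D2, and 6.68% and 8.12% for D7. Socs1, another feedback inhibitor, was at 31.9 CPM in D2 and 58.0 CPM in D7 against 89.5 CPM in Sham. In endothelial-like cells Jak2, a kinase of gp130 receptors, was at 186 CPM in D2 and 180 CPM in D7 against 70.9 CPM in Sham. In monocyte/macrophage-like cells Stat3 was at 258 CPM in D2 and 237 CPM in D7 against 485 CPM in Sham, and Clcf1 at 16.8 CPM in D7 against 2.31 CPM in Sham. In neutrophil-like cells 5 of 12 were higher for D2 and 7 of 14 for D7, where 30.8% and 31.3% of all genes were higher. Among them was Adam17, the protease that sheds the IL-6 receptor, at 175 CPM in D2 and 148 CPM in D7 against 38.0 CPM in Sham. Il31ra, which pairs with OSMR in the IL-31 receptor, stood in Sham at a like level in unlike classes, 13.3 CPM in endothelial-like, 18.1 CPM in fibroblast-like and 17.4 CPM in neutrophil-like cells, and no class difference is read from it.

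Likeness of pattern was measured over 27 sums of a class in a library with at least 50 cells, by Pearson's r of log2(CPM + 10) over 8049 genes that reached 50 CPM in at least 1 sum. These r values describe sums that share libraries and carry no test. Osm was most like Lst1, Pilra and Lilrb4a, with r of 0.952, 0.945 and 0.942. Osmr was most like Ehd2, Rbfox2 and Fbxl7, with r of 0.979, 0.977 and 0.974. The likeness was weaker for Il6, whose nearest genes were Creb3l1, Maob and Ror1 at 0.863, 0.839 and 0.836, and for Socs3, with Snx10, Cstb and Txnrd1 at 0.789, 0.775 and 0.769. In the GENCODE annotation of GRCm38, Osm (chr11:4236420-4241026, plus strand) and Lif (chr11:4257557-4272514, plus strand) are neighbours in 1 orientation, but Osm was a myeloid and Lif a mixed transcript in these libraries. Lifr (chr15:7090614-7197489, plus strand) and Osmr (chr15:6813577-6874969, minus strand) also lie near each other, and they shared endothelial-like expression but not expression in macrophages.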

How the data were processed

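Raw UMI counts per gene and barcode were deposited by the authors for each library, per the file headers from Cell Ranger 7.1.0; per the submitters' processing notes, Cell Ranger was 7.2.0, the build mm10 and Seurat 5.0.1. Deposited totals were 39756684 (Sham), 98260210 (D2) and 100571340 (D7) UMIs. Cells were required to have 300 genes and 500 UMIs, with mitochondrial UMIs not above 15%. Scrublet (scanpy 1.11.5) removed 105, 472 and 228 predicted doublets. Its automatic threshold called 0 in Sham, so the mean threshold of the other libraries was used there. Leiden clustering at resolution 1 (2000 variable genes without the members, 30 components, 15 neighbours) gave 28 clusters, of which 25 were named from markers of 17 classes. A class needed 3 or more markers detected in 10% of cells and leading genes that did not go against it; extra genes used to read leading genes were added with the clusters in view.

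UMIs were summed per class and library. CPM carry exact Poisson, shares Clopper-Pearson and ratios conditional binomial intervals at 95%, which treat UMIs as independent and ignore differences between cells and mice. The calculation was tested on simulated counts. With 1 library per group no test was made. Genes named were the 10 members, up to 4 genes per list and class with the largest ratio and the 3 most alike genes. Chosen after values were seen were Pim1, Il31ra, Atf3, Egr1, Fos, Junb and Mcpt4 and the fibroblast-like values of Cebpd and Vegfa. Members and lists were chosen with earlier results of these data known. Sequences are RefSeq promoter windows (GRCm38.p6), matched by symbol for 9 of 10 members. Some genes of the lists are counted but not reported here by name.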

Additional observations from a re-analysis of the deposited data

Results flagged for a closer look

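Some ratios to Sham pointed in opposite directions in different classes, and none of these differences between classes was tested, because each group was a single library. Lif in D2 was at 5.02 of its Sham level in neutrophil-like cells, from 2 UMIs in Sham, and at 0.0965 in T/NK/ILC-like cells, from 3 UMIs in D2. Of the 49 Lif UMIs of that class in Sham, 48 were in cluster 21, which made up 14.2% of the class in D2 and 29.5% in Sham. Il6st in D7 was at 2.10 of Sham in smooth muscle-like cells and at 0.371 in monocyte/macrophage-like cells, and the smooth muscle-like ratio was 1.03 with classes set cell by cell. Socs3 in D2 was at 4.07 of Sham in B-like cells and at 0.354 in fibroblast-like cells, and in D7 at 8.05 and 0.413. Without the 3 richest cells in each library the B-like ratios were 6.98 and 14.1.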

How the results depend on the processing

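No paired analysis was possible because each group is 1 library. Over the alternatives run, 932 of 967 ratios kept their side of 1 and 35 did not, 9 of these for fibroblast-like Osmr. The share of Osm UMIs in leukocyte-like classes was, with doublets kept, 92.4% in Sham, 94% in D2 and 89% in D7, at resolution 2 87.7% in D2 and 82.8% in D7, with classes set per cell 99.7% and 95.9%, and as a mean over cells 99.1% and 96.7%. It was 95.1% in Sham with the members in the clustering and 94.3% in D7 with free RNA subtracted. The stromal share of Osmr was 95.9% in Sham with doublets kept, 97% in Sham and 98.2% in D7 at resolution 2, and 99.1% and 99.4% with classes per cell. As a mean over cells it was 96% in Sham, 84.3% in D2 and 95.1% in D7, with the strict cell filter 84% in D2 and 95.1% in D7, with the members in the clustering 96.8% in Sham and 98.2% in D7, and 98.6% in D2 with free RNA subtracted.

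As means over cells, whole-library Osm was at 7.95 (D2) and 5.36 (D7) of Sham, fibroblast-like Osmr at 1.49 and 1.61, fibroblast-like Il6 at 0.299 and 0.492, and fibroblast-like Socs3 at 0.445 in D7. Neutrophil-like Osm in D7 was at 0.873 at resolution 2. Fibroblast-like Osmr in D7 was at 0.999 with doublets kept, 1.02 at resolution 2 and 1.01 with the members in the clustering. Fibroblast-like Il6 in D2 was at 0.691 with the strict filter and 0.678 with doublets kept, and in D7 at 0.661 and 0.714, with 0.67 both at resolution 2 and with the members in the clustering. For alternatives chosen after seeing the data, leaving out the 3 richest cells gave D2 ratios of 0.872 (Osmr), 0.381 (Il6) and 0.273 (Socs3), and leaving out cluster 2 gave D7 ratios of 0.997 (Osmr) and 0.693 (Il6). Neutrophil-like Lifr reversed with classes per cell, to 0.43 in D2 and 0.659 in D7, against 3.61 and 5.28, which rest on 1 UMI in Sham, and T/NK/ILC-like Lifr in D2 to 1.59 with doublets kept and 1.43 with classes per cell, against 0.46. Fibroblast-like genes set apart numbered 2393 for D2 over Sham, 1349 for D7 over Sham and 1104 for D7 over D2. They numbered 1132, 673 and 463 with a minimum of 50 CPM, and 4470, 2630 and 2872 at 1.5-fold. Except where a setting uses fewer cells or genes, the cause was not tested. Few stromal-like cells in D2 and few neutrophil-like cells in Sham limited all ratios that use them.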

Other observations

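Cluster 23, which was given no class and is led by the adipocyte genes Cfd, Car3 and Adipoq, was present with 86 cells in Sham and 93 in D7. Osmr was at 203 CPM in D7 and 142 CPM in Sham there, a ratio of 1.43 (0.979 to 2.16), while Il6 was at 93.4 CPM in D7 and 226 CPM in Sham, a ratio of 0.414 (0.288 to 0.6). Il6ra was at 21.0 CPM in D7 and 106 CPM in Sham, and Lifr at 29.2 CPM in D7 and 88.6 CPM in Sham. Socs3 was at 215 CPM in D7 and 235 CPM in Sham, a ratio of 0.916 (0.671 to 1.27).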
